A study of Mus musculus with 12 samples.

Results

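The genotype effect of JNK loss was examined in whole liver, in the 6 liver arrays among the 12 samples of the series. The members were chosen by their labels, as the samples whose tissue is liver, and no measured value entered the choice. JNKΔhepa mice were homozygous for a floxed Jnk1 allele (Mapk8), carried the Albf-Cre transgene and lacked Jnk2 (Mapk9) in the whole animal. The WT mice were Jnk1f/f Jnk2+/+ littermates, so floxed Jnk1 is shared by both groups. All were male C57BL/6 mice of 7 to 8 weeks on standard chow, with 3 mice in each group. Each liver gave 1 array, named below as WT 1 to WT 3 and JNKΔhepa 1 to JNKΔhepa 3. The numbers belong to different animals in the 2 groups.

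The model has limits that the labels give. Cre is driven by the albumin promoter with alpha-fetoprotein enhancer elements, so the Jnk1 deletion is aimed at cells of the hepatocyte lineage, while Jnk2 is absent from every cell. The labels do not say whether the WT mice carried Cre. Effects of JNK1 loss, of JNK2 loss and of the transgene cannot be told apart in this comparison. In a bulk tissue sample, fewer cells of a type and less RNA per cell cannot be told apart either.

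JNK kinases are stress-activated members of the MAP kinase family. They are switched on by the upstream kinases MKK4 and MKK7 and turned off by dual-specificity phosphatases. Their best known nuclear substrate is c-Jun, a subunit of the transcription factor AP-1. In hepatocytes they are known for roles in cell death, in insulin signalling and in repression of the nuclear receptor PPAR-alpha, which drives fatty acid oxidation.

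Values are on a log2 scale, so a difference of 1 is 2-fold, and each change is JNKΔhepa minus WT. A gene was called, and is said below to have risen or fallen, where limma's moderated test gave a Benjamini-Hochberg adjusted p under 0.05 over 18820 genes. For a gene whose lower group had an array reading under that array's own median, the fold is written "at least". If the same was true of the higher group too, its size is marked as not exact. All gene lists were chosen with earlier results of these data known. The share of calls in a list, given beside that of all genes, is therefore a description and no test of the list.

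Hepatocyte markers were high and even in all 6 livers. The 11 measured markers ranged in JNKΔhepa mean from 11.22 for Hnf4a, a hepatocyte transcription factor, to 12.93 for the albumin gene Alb, and their median change was 0.00157. WT 3 stood apart from the other WT livers in genes of the circadian clock. Arntl, which encodes the clock activator BMAL1, read 7.00, 7.21 and 4.97 in the WT livers and 7.31, 6.55 and 7.27 in the JNKΔhepa livers. Per3, a clock repressor, read 5.49, 4.87 and 7.49 in the WT livers and 4.59, 5.56 and 4.37 in the JNKΔhepa livers, and the G protein regulator gene Rgs16 read 5.52, 4.57 and 8.74 in the WT livers and 6.97, 8.36 and 7.24 in the JNKΔhepa livers. WT 3 was thus the lowest of the 6 livers for Arntl and the highest for Per3 and Rgs16, with JNKΔhepa 2 nearest to it for Rgs16. None of the 19 measured clock genes passed limma. Gene lists and calls are therefore also given without WT 3 where a described list gained or lost a call. JNKΔhepa 3 stood apart in acute phase genes: Lcn2, which encodes the iron-carrier-binding lipocalin 2, read 9.31, 7.88 and 9.35 in the WT livers and 9.58, 9.87 and 6.54 in the JNKΔhepa livers, and Saa2, a serum amyloid, read 8.43, 8.26 and 9.07 in the WT livers and 9.45, 9.28 and 6.23 in the JNKΔhepa livers. Across probe sets, arrays of 1 genotype correlated at r = 0.9907 to 0.9928 and arrays of different genotypes at 0.9883 to 0.9905.

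The genotype effect covered few genes and was mostly modest in size. Of 18820 genes, 174 were called (0.925%). Of these, 105 were higher in JNKΔhepa (0.558% of genes) and 69 lower (0.367%). At least a 1.5-fold change was seen in 120 of the calls and at least a 2-fold change in 30, of which 11 were higher and 19 lower. Without any threshold, 54.4% of genes had a value above 0 and the median change of all genes was 0.0155, with the middle 50% of genes between −0.0793 and 0.116. WT and JNKΔhepa arrays were fully apart in 3846 genes (20.4%), of which 2421 were higher (12.9% of genes) and 1425 lower (7.57%). Every one of the 174 called genes was among them. The excess of higher over lower calls depended on the normalisation: after renewed quantile normalisation of the liver arrays 73 calls were higher and 69 lower. The 10385 genes that read at or above the array median on at least 3 liver arrays had a median change of 0.0564. Of the 174 calls, 57 held without any single array (27 higher, 30 lower), and 28 were lost without each single array. Leaving out WT 3 raised the count to 208, and leaving out any other single array brought it to between 80 and 108. A fit of the 6 liver arrays alone called 127 genes, of which 99 were among the 174. Members of families with near-identical copies, such as Rpl34, Naip2, Hsd3b3, Ces1e and Adh6-ps1, may share signal with those copies.

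**Figure D1:**
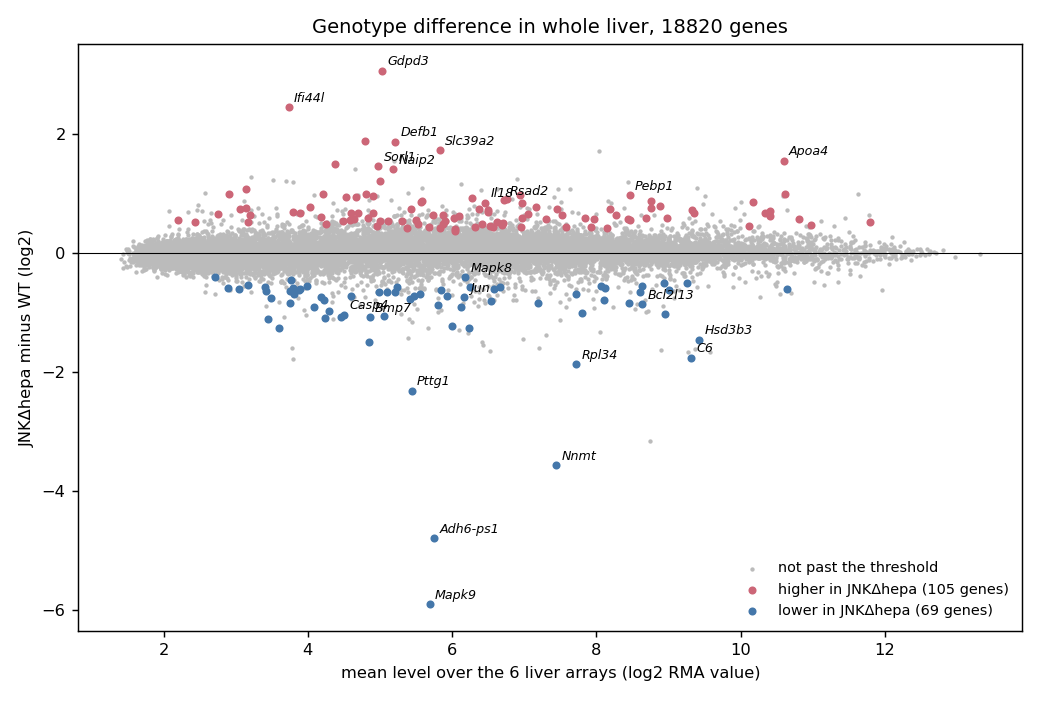
JNKΔhepa minus WT change (log2) of each of the 18820 genes against its mean level over the 6 liver arrays (log2 RMA value), 1 point per gene. The 105 genes that rose (red) and the 69 that fell (blue) are spread over all levels, and most lie within 1 log2 unit of 0.

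The targeted genes read as their labels say. Mapk9, which encodes JNK2, read 8.64, 8.69 and 8.59 in the WT livers and 2.85, 2.33 and 3.02 in the JNKΔhepa livers (log2 change −5.90, SE 0.159, limma adjusted p = 4.02e-10). Mapk8, which encodes JNK1, read 6.40, 6.39 and 6.37 in the WT livers and 5.95, 5.93 and 6.07 in the JNKΔhepa livers (log2 change −0.40, SE 0.0762, limma adjusted p = 0.027). The part of Mapk8 that was removed is not given in the sources used here, so the value is no measure of the completeness of the deletion. Mapk8 did not pass limma without WT 1 (adjusted p 0.109), WT 2 (0.096), WT 3 (0.0532), JNKΔhepa 1 (0.12) or JNKΔhepa 2 (0.106), nor in the fit of the liver arrays alone (0.0711). Of the 21 measured JNK kinases and upstream kinases, no other member was called.

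Of 16 measured subunits of AP-1 and the related ATF factors, 1 was called, the JNK substrate gene Jun, and 12 had values below 0. Jun read 6.38, 6.79 and 6.45 in the WT livers and 5.79, 5.75 and 5.86 in the JNKΔhepa livers, which put all JNKΔhepa arrays below all WT arrays (log2 change −0.74 with SE 0.14, limma adjusted p = 0.0264). The family's median change was −0.13, against 0.0155 for all genes. Jund (−0.55, adjusted p = 0.087) and Junb (−0.56, adjusted p = 0.131), the other members of the Jun group, did not pass. Their arrays did not overlap either, as in 7.57% of all genes in that direction. Fos, the classic partner of Jun, had a value of −0.10 (adjusted p = 0.955). Jun did not pass limma without WT 2 (adjusted p 0.103), JNKΔhepa 1 (0.0944), JNKΔhepa 2 (0.0931) or JNKΔhepa 3 (0.0686). Without WT 3, Jund was called beside Jun. Among 14 MAP kinase phosphatases, Dusp8, which acts on JNK, fell: it read 3.98, 4.18 and 4.08 in the WT livers and 3.50, 3.65 and 3.34 in the JNKΔhepa livers (log2 change −0.59 with SE 0.0935, limma adjusted p = 0.0101). These levels are near or below the array medians, so the size is not exact. Dusp8 did not pass limma in the fit of the liver arrays alone (adjusted p 0.0538). Btg2, an antiproliferative immediate early gene, read 5.93, 6.14 and 5.61 in the WT livers and 5.04, 5.49 and 5.10 in the JNKΔhepa livers and fell (log2 change −0.68 with SE 0.144, limma adjusted p = 0.0473). Btg2 did not pass limma without WT 1 (adjusted p 0.155), WT 2 (0.151), JNKΔhepa 1 (0.178) or JNKΔhepa 3 (0.15), nor in the fit of the liver arrays alone (0.128).

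The Jun promoter is shown because Jun is known as a target of AP-1 and ATF factors as well as a subunit. The window runs from 250 bases before to 50 after the start and was taken from RefSeq (GRCm38.p6, chr4:95052173-95052472, minus strand, written 5′ to 3′ on the strand of the gene). Capitals mark the 1 match of the 8-base motif TGACNTCA, whose first base lies at −45.
Jun: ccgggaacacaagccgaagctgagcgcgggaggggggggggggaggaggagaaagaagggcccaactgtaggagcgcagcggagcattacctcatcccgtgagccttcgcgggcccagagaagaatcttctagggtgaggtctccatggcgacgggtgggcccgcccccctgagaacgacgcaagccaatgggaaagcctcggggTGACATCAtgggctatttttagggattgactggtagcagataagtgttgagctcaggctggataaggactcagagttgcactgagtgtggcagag
This motif was searched on both strands and was added after the windows had been seen. It begins and ends with the same letters as the AP-1 motif TGANTCA, which had 0 matches in the Jun window, and a window can hold both. TGACNTCA was in the window of 8.828% of 14749 tested genes and TGANTCA in 7.919%. A match is a description of the letters and shows no binding.

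Genes of fatty acid oxidation lay mostly above 0 in JNKΔhepa liver, and few of them passed the test. In mitochondrial beta-oxidation all 19 measured genes had values above 0, from 0.12 to 0.75, with a median of 0.24. In 11 of them (57.9%, against 12.9% of all genes) every JNKΔhepa array was above every WT array. Only Acadm, the medium-chain acyl-CoA dehydrogenase, was called. It read 10.67, 10.75 and 10.81 in the WT livers and 11.12, 11.26 and 11.24 in the JNKΔhepa livers (log2 change 0.46 with SE 0.0775, limma adjusted p = 0.0125). Acot2, a mitochondrial acyl-CoA thioesterase, had the largest value (0.75, adjusted p = 0.151). Both subunits of the trifunctional protein, Hadha (0.29) and Hadhb (0.34), and Cpt1a, the carnitine palmitoyltransferase that admits fatty acids to mitochondria (0.27), had similar small values that did not pass. Acad10, an acyl-CoA dehydrogenase family member outside the list, read 6.17, 6.18 and 6.57 in the WT livers and 7.17, 7.29 and 7.18 in the JNKΔhepa livers and rose (log2 change 0.91 with SE 0.121, limma adjusted p = 0.00367). Acadm did not pass limma without WT 1 (adjusted p 0.0675), JNKΔhepa 2 (0.0609) or JNKΔhepa 3 (0.0651), nor in the fit of the liver arrays alone (0.0538).

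The peroxisomal and microsomal branch also lay mostly above 0. Of its 19 measured genes, 16 had values above 0 and 10 (52.6%, against 12.9% of all genes) had all JNKΔhepa arrays above all WT arrays, with a median of 0.28. Ehhadh, the peroxisomal bifunctional enzyme, read 9.88, 9.97 and 10.30 in the WT livers and 10.70, 10.64 and 10.95 in the JNKΔhepa livers and rose 1.64-fold (log2 change 0.71 with SE 0.135, limma adjusted p = 0.0274). Abcd2, which carries very long chain acyl groups into peroxisomes, had a value of 1.72 (adjusted p = 0.0877), and the omega-hydroxylase gene Cyp4a14 one of 0.99 (adjusted p = 0.189). The 13 measured peroxisome biogenesis genes, with 0 called, had a median of 0.19 and 12 values above 0, and without WT 1 the median was 0.12. Ehhadh did not pass limma without WT 1 (adjusted p 0.132), WT 2 (0.104), JNKΔhepa 1 (0.074), JNKΔhepa 2 (0.051) or JNKΔhepa 3 (0.114), nor in the fit of the liver arrays alone (0.0707).

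WT 3 read highest among the WT livers for both oxidation lists. The median deviation of mitochondrial beta-oxidation genes from the WT mean was −0.10 in WT 1, −0.05 in WT 2 and 0.15 in WT 3, against 0.19, 0.25 and 0.30 in JNKΔhepa 1 to 3. For peroxisomal and microsomal genes it was −0.07, 0.00 and 0.18 in WT and 0.21, 0.21 and 0.33 in JNKΔhepa, so WT 3 lay close to JNKΔhepa 1 and 2. Without WT 3 the medians rose to 0.34 and 0.37, and Acot2, Abcd2 and Cyp4a14 joined Acadm and Ehhadh past the threshold. Clock genes and these lists both set WT 3 apart, and the part of the clock in the result was not tested.

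**Figure D2:**
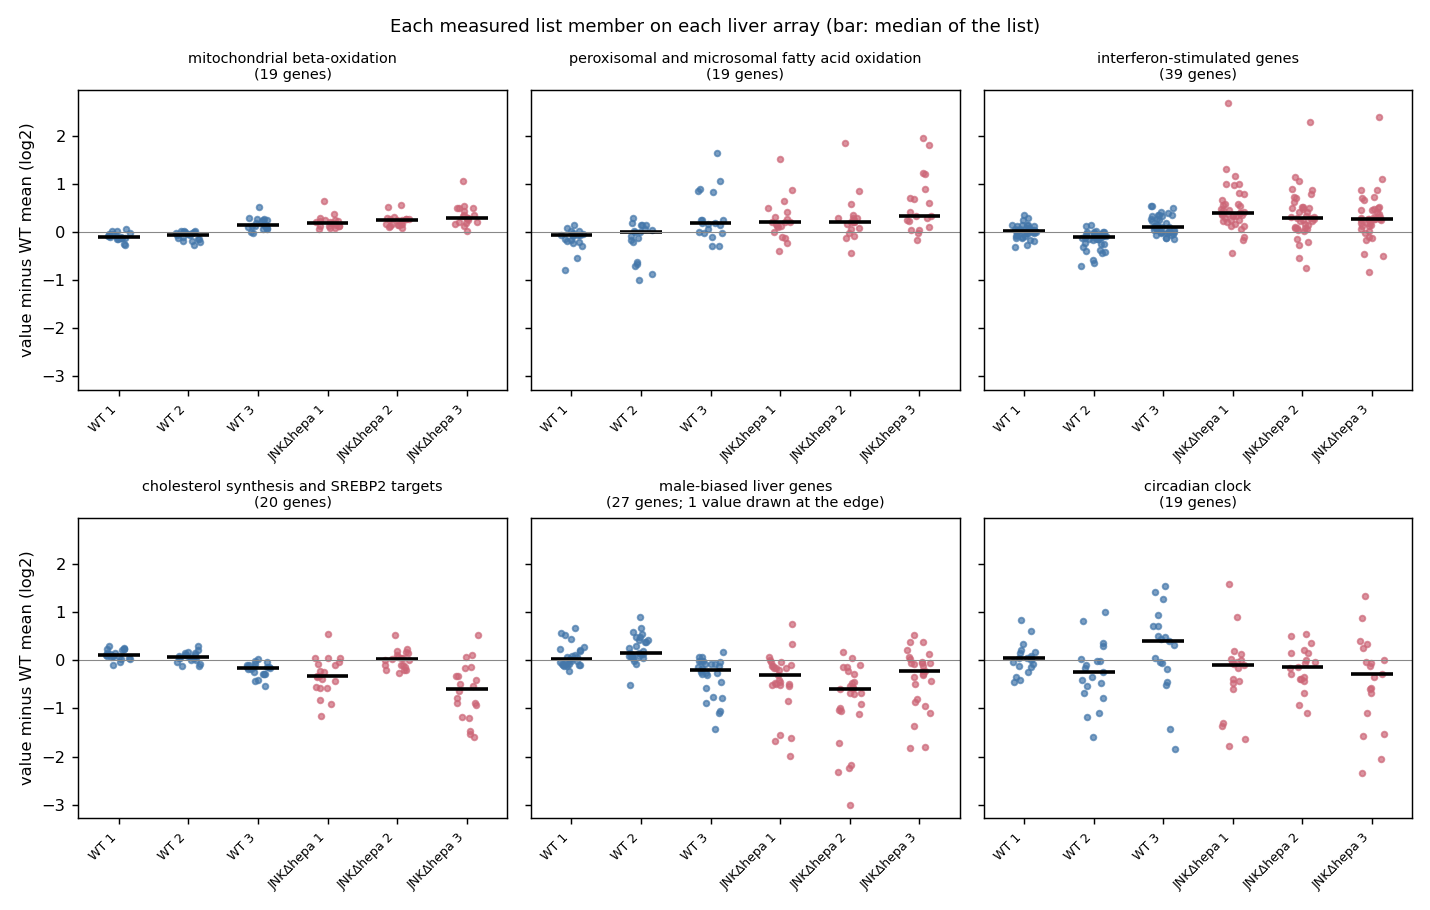
Value of each list member on each liver array minus its WT mean (log2), with the 3 WT arrays in blue, the 3 JNKΔhepa arrays in red and a bar at the median of the list. Mitochondrial beta-oxidation genes sit at 0.19 to 0.30 in JNKΔhepa and interferon-stimulated genes at 0.28 to 0.39, cholesterol synthesis genes are near the WT level in JNKΔhepa 2 alone, and the clock panel shows WT 3 apart.

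Ketone body and fasting-response genes held 2 further calls. They were 1 of 4 measured ketone body genes (25%) and 1 of 21 other PPAR-alpha genes (4.76%), against 0.925% of all genes. Slc16a1, which encodes the monocarboxylate and ketone body carrier MCT1, read 8.42, 8.46 and 8.08 in the WT livers and 9.34, 8.75 and 9.52 in the JNKΔhepa livers and rose 1.84-fold (log2 change 0.88 with SE 0.169, limma adjusted p = 0.0291). Fgf21, a liver hormone induced in fasting, read 3.53, 3.59 and 3.82 in the WT livers and 4.15, 4.30 and 4.80 in the JNKΔhepa livers and rose at least 1.71-fold (log2 change 0.77 with SE 0.156, limma adjusted p = 0.0373). Among 21 other PPAR-alpha targets and regulators the median change was 0.22 and 17 values lay above 0. Angptl4, an inhibitor of lipoprotein lipase, had a value of 0.84 (adjusted p = 0.128), and Ppara itself 0.28 (adjusted p = 0.396). Without WT 3, Ppara, the pantetheinase gene Vnn1 and the monoglyceride lipase gene Mgll passed beside Fgf21, Bdh1 passed among ketone genes and Slc16a1 did not. Slc16a1 did not pass limma without WT 1 (adjusted p 0.0802), WT 2 (0.0559), WT 3 (0.0765), JNKΔhepa 1 (0.122) or JNKΔhepa 3 (0.112), nor in the fit of the liver arrays alone (0.115). Fgf21 did not pass limma without WT 1 (adjusted p 0.149), WT 2 (0.118), JNKΔhepa 2 (0.0774) or JNKΔhepa 3 (0.102), nor in the fit of the liver arrays alone (0.106) or after renewed quantile normalisation (0.0532).

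Plin2, which coats lipid droplets, was the 1 called gene among 23 of lipid droplets and triglyceride turnover. It read 10.40, 10.61 and 10.56 in the WT livers and 11.14, 10.95 and 11.19 in the JNKΔhepa livers (log2 change 0.57 with SE 0.0958, limma adjusted p = 0.0129), with no overlap between the groups. Slc25a47, a mitochondrial carrier gene of liver, read 9.91, 9.73 and 10.71 in the WT livers and 10.93, 11.06 and 11.34 in the JNKΔhepa livers and rose 1.99-fold (log2 change 0.99 with SE 0.197, limma adjusted p = 0.0339). WT 3 was the highest WT liver for it. Plin2 did not pass limma without WT 1 (adjusted p 0.0717), JNKΔhepa 1 (0.0681) or JNKΔhepa 3 (0.0667), nor in the fit of the liver arrays alone (0.0538). Slc25a47 did not pass limma without WT 1 (adjusted p 0.145), WT 2 (0.112), JNKΔhepa 1 (0.0681), JNKΔhepa 2 (0.0931) or JNKΔhepa 3 (0.127), nor in the fit of the liver arrays alone (0.131) or with a variance trend (0.0538).

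Genes of ubiquinone (coenzyme Q) synthesis, the electron carrier that takes electrons from fatty acid oxidation, were listed after the values were seen. With the values known in advance, the shares of this list cannot be weighed against those of all genes. Of 12 measured, 10 had values above 0, with a median of 0.21. Of the 12, 3 rose by limma: the methyltransferase gene Coq5 (0.59, adjusted p = 0.0113), the ubiquinone-binding protein gene Coq10a (0.42, adjusted p = 0.0402) and Pdss2. Pdss2, which makes the side chain, had a value of 0.49 (adjusted p = 0.0311). Coq5 did not pass limma without WT 1 (adjusted p 0.0606), JNKΔhepa 2 (0.0503) or JNKΔhepa 3 (0.0575). Coq10a did not pass limma without WT 1 (adjusted p 0.161), WT 2 (0.129), JNKΔhepa 1 (0.127), JNKΔhepa 2 (0.0826) or JNKΔhepa 3 (0.142), nor in the fit of the liver arrays alone (0.115), after renewed quantile normalisation (0.0535), after median centring (0.0548) or with the mean of its probe sets (0.17). Pdss2 did not pass limma without any 1 of the 6 arrays (adjusted p 0.0648 to 0.126), nor after renewed quantile normalisation (0.0532).

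Respiratory chain genes lay close to 0. Complex I (35 genes, 0 called) had a median of 0.0562 and complexes II to V (42 genes) one of 0.0684. The 1 call, Cox6b2, encodes a cytochrome c oxidase subunit isoform best known from testis. It read 3.50, 3.66 and 3.71 in the WT livers and 5.27, 5.05 and 5.03 in the JNKΔhepa livers (at least 2.82-fold, log2 change 1.49 with SE 0.174, limma adjusted p = 0.00134). The tricarboxylic acid cycle (16 genes, 0 called) had a median of 0.0636.

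Sterol synthesis genes lay below 0 as a group, but no member was called. Of 20 measured genes of cholesterol synthesis and SREBP2 targets, 17 had values below 0 and the median was −0.37, the lowest of the 58 pathway lists. Msmo1, a sterol demethylation enzyme, read 10.73, 10.68 and 10.50 in the WT livers and 9.82, 10.45 and 9.43 in the JNKΔhepa livers (log2 change −0.74 with SE 0.184, limma adjusted p = 0.0906). Sqle, the squalene epoxidase, read 9.63, 9.29 and 9.18 in the WT livers and 8.47, 9.17 and 7.78 in the JNKΔhepa livers (log2 change −0.90, adjusted p = 0.142). JNKΔhepa 2 was nearest to WT in both, and the list's median deviation from the WT mean was −0.33, 0.02 and −0.59 in JNKΔhepa 1 to 3 against 0.11, 0.06 and −0.15 in WT. The JNKΔhepa livers thus differed among themselves by more than the WT livers did. Without JNKΔhepa 2, Msmo1, Sqle, the mevalonate decarboxylase gene Mvd and the squalene synthase gene Fdft1 fell past the threshold and the median was −0.52. Without JNKΔhepa 3 it was −0.20.

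Fatty acid synthesis and desaturation split by gene. Of 21 genes 15 had values below 0 (median −0.15), including the lipogenic regulators Srebf1 (−0.92, adjusted p = 0.119) and Thrsp (−1.67, adjusted p = 0.073). The 1 call was in the other direction: Elovl5, which lengthens polyunsaturated fatty acids, read 11.51, 11.55 and 11.55 in the WT livers and 12.03, 12.18 and 11.97 in the JNKΔhepa livers and rose 1.43-fold (log2 change 0.52 with SE 0.0846, limma adjusted p = 0.0104). Elovl5 did not pass limma without WT 1 (adjusted p 0.0563) or JNKΔhepa 2 (0.0521). Without JNKΔhepa 2, Srebf1, Thrsp and Insig1, which retains the SREBP proteins, fell past the threshold and Elovl5 did not pass. The list median was −0.10 without WT 2 and −0.02 without JNKΔhepa 3.

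Bile acid genes held 2 calls among 29 (6.90%, against 0.925% of all genes), both higher. Cyp8b1, the sterol 12-alpha-hydroxylase that sets the share of cholic acid, read 10.27, 10.07 and 9.92 in the WT livers and 10.54, 10.59 and 11.02 in the JNKΔhepa livers (log2 change 0.63 with SE 0.129, limma adjusted p = 0.0403), and the uptake carrier gene Slco1a4 read 8.44, 8.27 and 8.76 in the WT livers and 8.98, 9.60 and 9.24 in the JNKΔhepa livers (log2 change 0.78 with SE 0.156, limma adjusted p = 0.0339). Cyp7a1, the rate-limiting enzyme of the classic pathway, had a value of 0.44 (adjusted p = 0.474). Cyp7b1, the oxysterol 7-alpha-hydroxylase of the alternative pathway, read 10.23, 10.60 and 8.28 in the WT livers and 8.03, 7.47 and 8.76 in the JNKΔhepa livers (log2 change −1.62, adjusted p = 0.206), with WT 3 inside the JNKΔhepa range. Without WT 3, Cyp7b1 fell past the threshold and the sterol exporter genes Abcg5 and Abcg8 rose past it, while Cyp8b1 did not pass. Cyp8b1 did not pass limma without any 1 of the 6 arrays (adjusted p 0.0535 to 0.117), nor in the fit of the liver arrays alone (0.123) or after median centring (0.0502). Slco1a4 did not pass limma without WT 1 (adjusted p 0.136), WT 2 (0.129), JNKΔhepa 2 (0.114) or JNKΔhepa 3 (0.103), nor in the fit of the liver arrays alone (0.116).

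Among 21 apolipoproteins and lipoprotein genes, 3 rose and 0 fell (14.3% called, against 0.925% of all genes). Apoa4, an apolipoprotein of chylomicrons and HDL, read 9.91, 9.60 and 9.95 in the WT livers and 11.42, 11.64 and 11.07 in the JNKΔhepa livers and rose 2.94-fold (log2 change 1.56 with SE 0.156, limma adjusted p = 0.000597). A second, much dimmer probe set of Apoa4 had a value of 0.74, with overlapping arrays. Sorl1, a sorting receptor of the LDL receptor family, read 4.09, 4.39 and 4.25 in the WT livers and 5.87, 5.97 and 5.29 in the JNKΔhepa livers (at least 2.76-fold, log2 change 1.46 with SE 0.16, limma adjusted p = 0.000884), and the HDL receptor gene Scarb1 read 9.95, 9.81 and 9.91 in the WT livers and 10.40, 10.42 and 10.24 in the JNKΔhepa livers (log2 change 0.46 with SE 0.0985, limma adjusted p = 0.04995). Apoa4 and Sorl1 held without any single array. Scarb1 did not pass limma without any 1 of the 6 arrays (adjusted p 0.074 to 0.171), nor in the fit of the liver arrays alone (0.0687), with mouse as a random block (0.051), after renewed quantile normalisation (0.0767) or after median centring (0.0593).

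Glucose metabolism had 0 calls among 30 genes of gluconeogenesis, glycolysis and insulin signalling (median 0.0579) and 0 among 14 of glycogen. G6pc, the glucose-6-phosphatase that releases glucose from liver, came nearest. It read 11.27, 11.68 and 11.44 in the WT livers and 11.87, 12.13 and 12.28 in the JNKΔhepa livers (log2 change 0.63 with SE 0.137, limma adjusted p = 0.0525). Its groups did not overlap, as in 12.9% of all genes in that direction. G6pc passed without WT 2, with the filter on dim probe sets and with a variance trend.

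**Figure D3:**
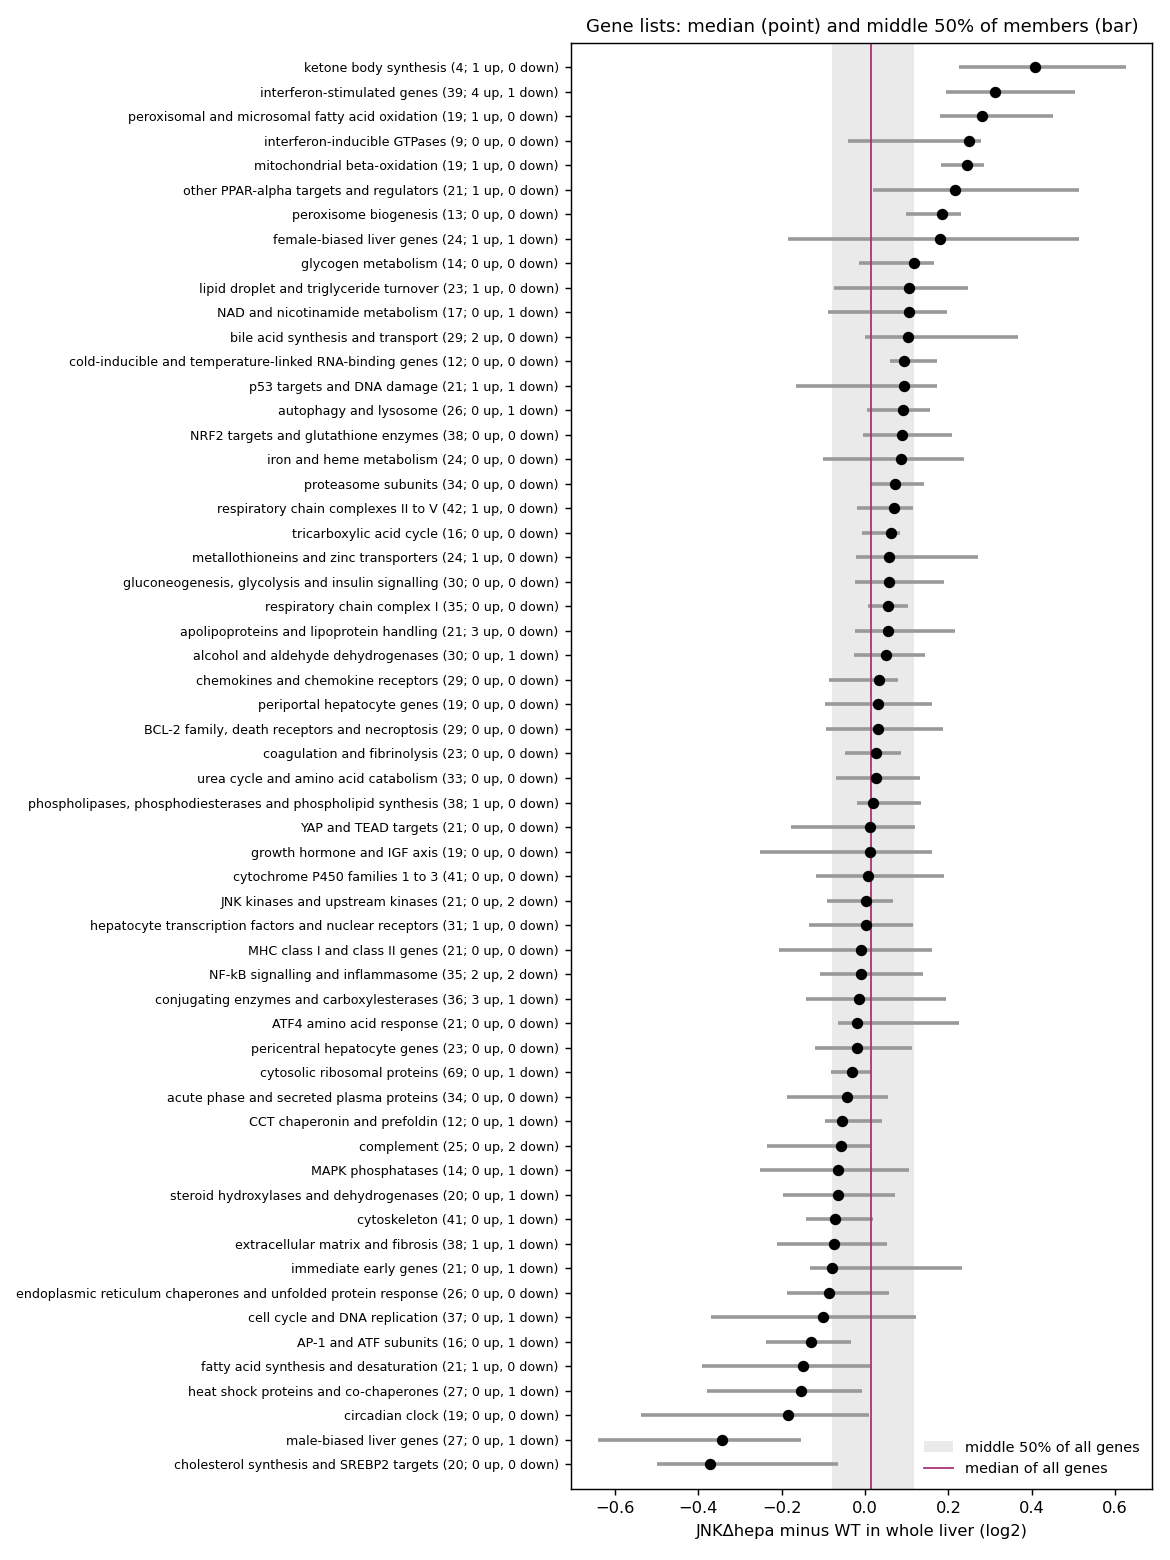
Median change (point, log2) and middle 50% of members (bar) of the 58 pathway lists in whole liver, with the number measured and the numbers called higher (up) and lower (down) in brackets, beside the middle 50% and the median of all genes. Ketone, interferon-stimulated and fatty acid oxidation lists lie to the right of most genes, and cholesterol synthesis (−0.37) and male-biased genes (−0.34) furthest to the left.

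Interferon-stimulated genes were above 0 in JNKΔhepa liver in 35 of 39 measured members. They are induced by type I interferons and encode antiviral proteins. The median change was 0.31, and in 22 members (56.4%, against 12.9% of all genes) every JNKΔhepa array was above every WT array. Of the list 4 rose and 1 fell (12.8% called, against 0.925% of all genes). Ifi44l, an interferon-induced gene of little known function, read 2.63, 2.40 and 2.47 in the WT livers and 5.18, 4.79 and 4.90 in the JNKΔhepa livers, the largest change of the list (at least 5.48-fold, log2 change 2.45 with SE 0.124, limma adjusted p = 5.73e-07). Rsad2, which encodes the antiviral enzyme viperin, read 6.33, 6.22 and 6.27 in the WT livers and 7.44, 7.06 and 7.01 in the JNKΔhepa livers (1.86-fold, log2 change 0.89 with SE 0.135, limma adjusted p = 0.00701). Its neighbour Cmpk2, a mitochondrial nucleotide kinase, read 5.21, 5.03 and 5.17 in the WT livers and 6.13, 5.86 and 6.01 in the JNKΔhepa livers (log2 change 0.86 with SE 0.139, limma adjusted p = 0.0102), and Xaf1, an XIAP-associated factor, read 5.19, 5.36 and 5.10 in the WT livers and 5.81, 5.84 and 5.70 in the JNKΔhepa livers (log2 change 0.56 with SE 0.0894, limma adjusted p = 0.0101). In all 4 the groups were separate, and JNKΔhepa 1 was the highest array except for Xaf1. Cmpk2 did not pass limma without JNKΔhepa 1 (adjusted p 0.0566). Xaf1 did not pass limma without JNKΔhepa 1 (adjusted p 0.053).

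Classic members such as Ifit1 (1.08, adjusted p = 0.0867), Usp18 (1.08, 0.138) and Ifit3 (0.86, 0.138) had values near those of Rsad2 but wider spread and did not pass. Irf7, the regulator of interferon production, read 6.71, 6.37 and 7.17 in the WT livers and 7.11, 6.97 and 6.93 in the JNKΔhepa livers (log2 change 0.26, adjusted p = 0.746). Oasl1, an inhibitor of Irf7 translation, went the other way: it read 7.03, 6.79 and 6.83 in the WT livers and 6.44, 6.35 and 6.05 in the JNKΔhepa livers and fell (log2 change −0.60 with SE 0.128, limma adjusted p = 0.0477). The list's median deviation from the WT mean was 0.03, −0.11 and 0.10 in WT and 0.39, 0.30 and 0.28 in JNKΔhepa, so the groups did not overlap on this measure. Without WT 3, 7 members rose (Ifit1, Ifit3 and Ifi27l2a beside the 4 named) and Oasl1 was not called. The fit of the liver arrays alone called 5 members higher, among them Dhx58, which encodes the RNA sensor LGP2. Oasl1 did not pass limma without any 1 of the 6 arrays (adjusted p 0.0681 to 0.18), nor in the fit of the liver arrays alone (0.0816).

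The lists of other interferon-linked groups did not hold calls. Of 18 listed interferon-inducible GTPases 9 were measured. The list holds no predicted genes, so a call of the family outside it is not covered. Gm12250, a predicted gene outside the list, rose (log2 change 1.21). Gm12250 did not pass limma without JNKΔhepa 1 (adjusted p 0.0547). The 9 measured interferon-inducible GTPases had a median of 0.25 (0.16 without WT 2 and 0.12 without JNKΔhepa 1) and the 21 MHC class I and class II genes, antigen-presenting molecules that interferon-gamma induces, one of −0.00853. The lymphocyte and myeloid marker lists also had 0 calls. T cell and NK cell markers (16 genes) had a mean level of 3.41, 3.13 and 3.40 in WT and 3.27, 3.23 and 3.22 in JNKΔhepa, below the array medians. B cell and plasma cell markers had 10 of 12 values above 0 and a mean level of 3.54, 3.47 and 3.57 in WT and 3.75, 3.70 and 3.62 in JNKΔhepa, with no overlap. Their part in the result was not tested.

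The promoters of 3 of these genes are shown because called members differed in whether the window held the motif that interferon-stimulated genes are known for. Windows were taken from RefSeq (GRCm38.p6) and are written 5′ to 3′ on the strand of the gene, and capitals mark a match to the interferon response motif (the word GAAA, 2 free bases and GAAA again), searched on both strands.
Rsad2: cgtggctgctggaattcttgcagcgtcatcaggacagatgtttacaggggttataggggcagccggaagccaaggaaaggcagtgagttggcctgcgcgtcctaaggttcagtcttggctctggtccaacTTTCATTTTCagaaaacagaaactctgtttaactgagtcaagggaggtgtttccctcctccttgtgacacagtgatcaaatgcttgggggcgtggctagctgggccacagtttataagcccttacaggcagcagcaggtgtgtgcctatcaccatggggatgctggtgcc
Cmpk2: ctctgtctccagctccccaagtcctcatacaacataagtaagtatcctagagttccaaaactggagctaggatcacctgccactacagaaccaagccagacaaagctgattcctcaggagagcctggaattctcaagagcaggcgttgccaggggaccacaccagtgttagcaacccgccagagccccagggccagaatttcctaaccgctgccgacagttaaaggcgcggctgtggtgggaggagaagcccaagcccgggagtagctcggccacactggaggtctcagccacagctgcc
Ifi44l: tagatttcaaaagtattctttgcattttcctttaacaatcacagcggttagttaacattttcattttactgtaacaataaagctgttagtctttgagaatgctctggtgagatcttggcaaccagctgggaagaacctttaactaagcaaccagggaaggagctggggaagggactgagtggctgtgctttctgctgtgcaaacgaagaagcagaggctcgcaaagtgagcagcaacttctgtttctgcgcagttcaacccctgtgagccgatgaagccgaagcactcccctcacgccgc
The windows lie at chr12:26456403-26456702 on the minus strand for Rsad2, chr12:26468965-26469264 on the plus strand for Cmpk2 and chr3:151762842-151763141 on the minus strand for Ifi44l. Rsad2 held 1 match, in reverse complement, with its first base at −120. Cmpk2 and Ifi44l held 0 matches in their windows. The other called members, Xaf1 and Oasl1, whose windows are not shown, also held 0, so Rsad2 alone of the called members had the motif. Over the list, 13 of 28 genes with a window had the motif (46.43%), against 3.905% of 14749 tested genes. No match says only that these letters are not in this window.

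Innate immune sensors changed in both directions, with 2 genes higher and 2 lower among 35 of NF-kB signalling and the inflammasome (11.4% called, against 0.925% of all genes). Il18, an inflammasome-processed cytokine, read 5.86, 6.06 and 6.17 in the WT livers and 6.91, 7.01 and 6.71 in the JNKΔhepa livers and rose 1.8-fold (log2 change 0.84 with SE 0.114, limma adjusted p = 0.00383). Naip2, a cytosolic receptor for bacterial secretion systems, read 4.60, 4.08 and 4.75 in the WT livers and 5.52, 6.33 and 5.81 in the JNKΔhepa livers and rose at least 2.66-fold (log2 change 1.41 with SE 0.198, limma adjusted p = 0.0048). Casp4, which encodes the mouse caspase-11 that senses lipopolysaccharide, read 4.94, 4.99 and 5.15 in the WT livers and 3.95, 3.90 and 4.13 in the JNKΔhepa livers and fell at least 2.05-fold (log2 change −1.03 with SE 0.123, limma adjusted p = 0.00162). Tifa, an adaptor that links to TRAF6 and NF-kB, read 6.75, 6.31 and 6.78 in the WT livers and 5.35, 5.71 and 5.10 in the JNKΔhepa livers and fell 2.34-fold (log2 change −1.23 with SE 0.196, limma adjusted p = 0.0101). In each the groups did not overlap. The list's median was −0.00899, so these 4 stood among genes near 0, such as Nlrp3 (−0.02), Rela (0.01) and Tnfaip3 (0.03). Defb1, a beta-defensin, read 4.11, 3.92 and 4.79 in the WT livers and 6.09, 6.23 and 6.12 in the JNKΔhepa livers and rose at least 3.67-fold (log2 change 1.88 with SE 0.212, limma adjusted p = 0.00113). Il18, Naip2, Casp4 and Defb1 held without any single array. Without WT 3, Naip6, another receptor of the Naip family, rose past the threshold. Tifa did not pass limma without WT 1 (adjusted p 0.0574).

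**Figure D4:**
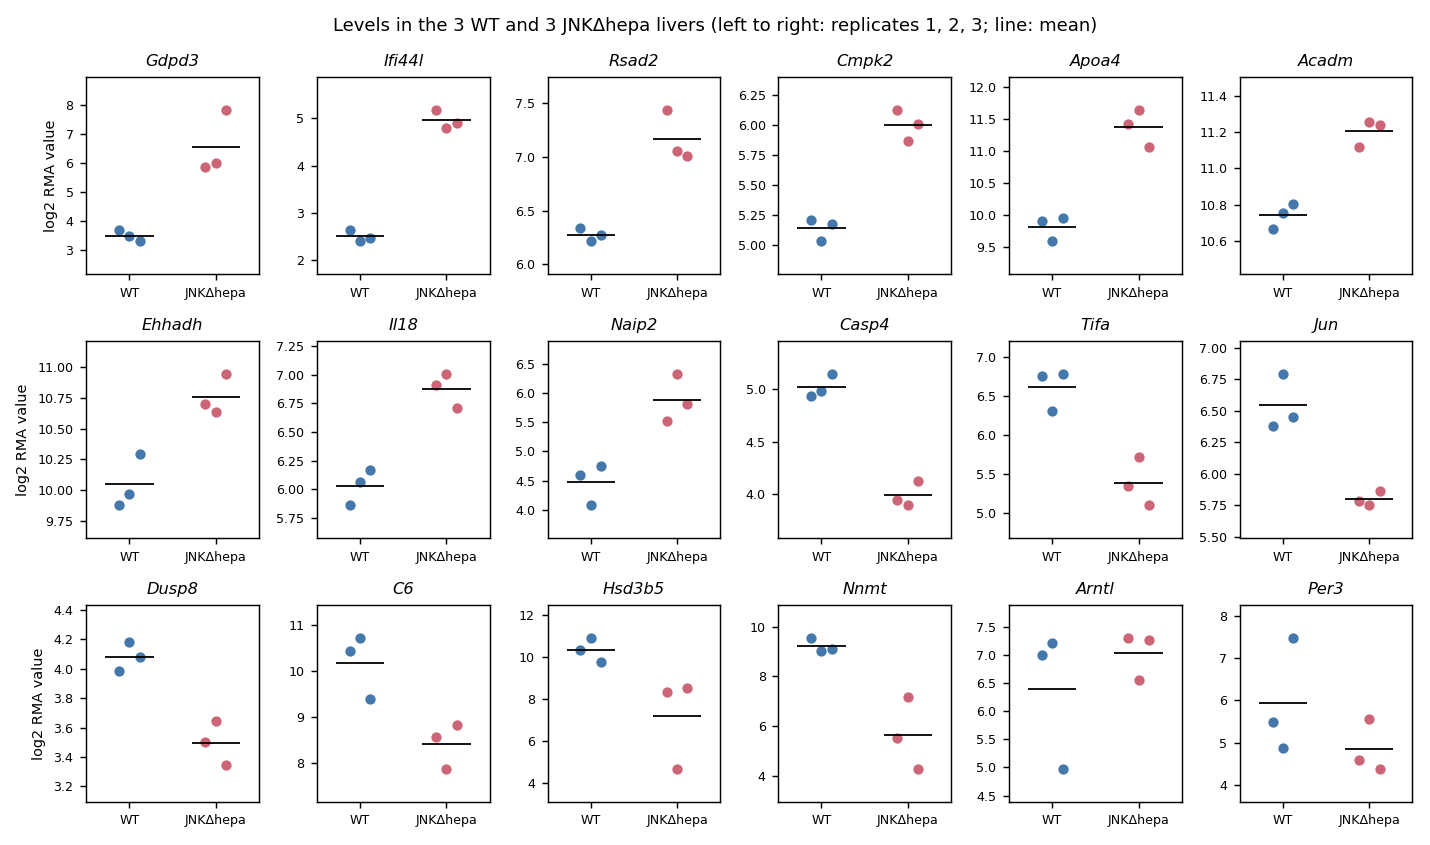
Log2 RMA value of 18 genes in each liver, with the 3 WT arrays in blue, the 3 JNKΔhepa arrays in red (replicates 1, 2 and 3 from left to right) and a line at each mean; the axis differs by gene and does not start at 0. The first 14 genes and Nnmt were called, Hsd3b5 was not (adjusted p = 0.0785), and Arntl and Per3 show WT 3 apart.

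Male-biased liver genes, which pulsatile growth hormone maintains in males, were below 0 in 25 of 27 measured members (median −0.34). In 10 (37.0%, against 7.57% of all genes) every JNKΔhepa array was below every WT array. The median deviation of the list from the WT mean was 0.03, 0.15 and −0.21 in WT and −0.31, −0.60 and −0.21 in JNKΔhepa, so WT 3 lay level with JNKΔhepa 3. C6, a complement component, was the 1 call. It read 10.44, 10.73 and 9.40 in the WT livers and 8.58, 7.88 and 8.84 in the JNKΔhepa livers (3.38-fold, log2 change −1.76 with SE 0.374, limma adjusted p = 0.0487). Hsd3b5, a male-specific keto-steroid reductase, had the lowest value: it read 10.31, 10.91 and 9.74 in the WT livers and 8.33, 4.65 and 8.50 in the JNKΔhepa livers (log2 change −3.16, adjusted p = 0.0785), with JNKΔhepa 2 far below the other JNKΔhepa livers. Cish, a growth hormone-induced inhibitor of cytokine signalling, read 6.67, 7.67 and 6.35 in the WT livers and 6.34, 5.10 and 5.20 in the JNKΔhepa livers (log2 change −1.35 with SE 0.335, limma adjusted p = 0.0896), and Igf1, the main growth hormone-dependent hormone, read 11.23, 11.34 and 11.24 in the WT livers and 10.97, 10.97 and 10.96 in the JNKΔhepa livers (log2 change −0.30 with SE 0.0859, limma adjusted p = 0.133). Neither passed. The Igf1 groups did not overlap, as in 7.57% of all genes in that direction. Without WT 3, C6, Cyp7b1, the complement inhibitor gene Susd4 and Cish all fell past the threshold and the median of male-biased genes was −0.45. The 24 female-biased genes had a median of 0.18 with Hao2, a hydroxyacid oxidase, higher (0.53, not exact, adjusted p = 0.0478) and Nnmt lower. Without WT 3 the female-biased list had 4 genes higher and 1 lower, with a median of 0.34. Its median was 0.01 without WT 2, 0.09 without JNKΔhepa 2 and 0.07 without JNKΔhepa 3. Without JNKΔhepa 2, Hsd3b5 fell past the threshold, and the median of male-biased genes was −0.24 without JNKΔhepa 2 and −0.52 without JNKΔhepa 3. Nnmt did not pass limma in the fit of the liver arrays alone (adjusted p 0.0538) or with a variance trend (0.0534). C6 did not pass limma without WT 1 (adjusted p 0.176), WT 2 (0.159), JNKΔhepa 1 (0.122), JNKΔhepa 2 (0.168) or JNKΔhepa 3 (0.0725), nor in the fit of the liver arrays alone (0.0894), after renewed quantile normalisation (0.0518) or with a variance trend (0.137). Hao2 did not pass limma without WT 1 (adjusted p 0.135), WT 2 (0.16), JNKΔhepa 2 (0.164) or JNKΔhepa 3 (0.161), nor in the fit of the liver arrays alone (0.137), after renewed quantile normalisation (0.0518) or after median centring (0.0536).

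Among steroid and xenobiotic enzymes, the lists of steroid enzymes (20 genes) and of alcohol and aldehyde dehydrogenases (30 genes) held 1 call each. Hsd3b3, a hydroxysteroid dehydrogenase, read 10.06, 10.35 and 10.07 in the WT livers and 8.65, 8.85 and 8.60 in the JNKΔhepa livers and fell 2.75-fold (log2 change −1.46 with SE 0.196, limma adjusted p = 0.00383). The alcohol dehydrogenase pseudogene Adh6-ps1 read 7.78, 9.09 and 7.57 in the WT livers and 3.49, 3.35 and 3.21 in the JNKΔhepa livers (at least 27.9-fold lower, log2 change −4.80 with SE 0.363, limma adjusted p = 3.75e-05). The 41 measured cytochrome P450 genes of families 1 to 3 had 0 calls and a median of 0.00701, and the 38 NRF2 and glutathione genes 0 calls and one of 0.088. Of 36 conjugating enzymes and carboxylesterases, 3 rose and 1 fell (11.1% called, against 0.925% of all genes). Tpmt, the thiopurine methyltransferase, read 10.06, 10.13 and 9.80 in the WT livers and 10.64, 10.69 and 10.68 in the JNKΔhepa livers (log2 change 0.67 with SE 0.0926, limma adjusted p = 0.00411). Ces1e, a carboxylesterase, had a value of 0.60 (adjusted p = 0.0118) and the monooxygenase gene Fmo4 one of 0.59 (0.0137). Nnmt, which methylates nicotinamide, read 9.55, 9.02 and 9.11 in the WT livers and 5.54, 7.17 and 4.29 in the JNKΔhepa livers and fell 11.8-fold (log2 change −3.56 with SE 0.556, limma adjusted p = 0.00945), with a wide spread among the JNKΔhepa livers but no overlap. The other NAD and nicotinamide genes had 0 calls among 16. Tpmt, Nnmt, Hsd3b3 and Adh6-ps1 held without any single array. Without WT 3 the conjugating list had 4 genes higher and 4 lower, and Gstt2, a glutathione transferase gene, and Hsd17b6, a hydroxysteroid dehydrogenase gene, also passed. Nnmt did not pass limma in the fit of the liver arrays alone (adjusted p 0.0538) or with a variance trend (0.0534). Ces1e did not pass limma without JNKΔhepa 1 (adjusted p 0.0594), nor in the fit of the liver arrays alone (0.0691). Fmo4 did not pass limma without WT 1 (adjusted p 0.0598), WT 2 (0.0626), JNKΔhepa 1 (0.0531) or JNKΔhepa 3 (0.0658).

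Protein quality control genes lay mostly below 0. Of 27 heat shock proteins and co-chaperones, 21 had values below 0 (median −0.15) and in 10 every JNKΔhepa array was below every WT array (37.0%, against 7.57%). In 5 others every JNKΔhepa array was above every WT array (18.5%, against 12.9% of all genes). Hspa2, an HSP70 isoform, read 4.65, 4.31 and 4.67 in the WT livers and 3.61, 3.82 and 3.99 in the JNKΔhepa livers and fell at least 1.67-fold (log2 change −0.74 with SE 0.119, limma adjusted p = 0.0102). Hsph1 (−0.77, adjusted p = 0.0734) and Hspa8 (−0.38, 0.0867) did not pass. Cct6a, a subunit of the CCT chaperonin that folds actin and tubulin, read 9.59, 9.47 and 9.46 in the WT livers and 8.94, 9.12 and 8.95 in the JNKΔhepa livers and fell (log2 change −0.50 with SE 0.103, limma adjusted p = 0.0394), as the only call among 12 chaperonin and prefoldin genes. Endoplasmic reticulum chaperones (26 genes) and the ATF4 response (21 genes) had 0 calls, and Hyou1, an endoplasmic chaperone, had a value of −0.98 (adjusted p = 0.132). Without WT 3 the asparagine synthetase gene Asns fell past the threshold. Without WT 1 the heat shock median was −0.08, and the fit of the liver arrays alone called Hsph1 and Hyou1 lower. The motif of heat shock factors (the words GAA, TTC and GAA with 2 free bases between each) was in the promoter window of 5 of 23 heat shock genes (21.74%), against 0.5831% of tested genes, and had 0 matches in that of Hspa2. Hspa2 did not pass limma without WT 1 (adjusted p 0.0598) or JNKΔhepa 1 (0.0547), nor in the fit of the liver arrays alone (0.0657). Cct6a did not pass limma without any 1 of the 6 arrays (adjusted p 0.0594 to 0.155).

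The ribosome and the proteasome lay a little to either side of 0. Of 69 cytosolic ribosomal protein genes, 47 lay below 0 with a median of −0.0321, and of 34 proteasome genes 27 lay above 0 with a median of 0.0725. Against these, Rpl34, which encodes a large-subunit protein, read 8.70, 8.88 and 8.38 in the WT livers and 6.82, 6.88 and 6.65 in the JNKΔhepa livers and fell 3.65-fold (log2 change −1.87 with SE 0.147, limma adjusted p = 4.72e-05), where the next lowest member, Rplp0, had a value of −0.25. Ulk2, a kinase that starts autophagy, read 8.46, 8.58 and 8.47 in the WT livers and 7.80, 7.64 and 7.71 in the JNKΔhepa livers and fell 1.72-fold (log2 change −0.79 with SE 0.0853, limma adjusted p = 0.000884), while the other 25 autophagy and lysosome genes were not called (list median 0.0916). Rpl34 and Ulk2 held without any single array.

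Complement held 2 calls among 25 genes (8%, against 0.925% of all genes), both lower, and the lists of coagulation and of acute phase proteins held 0. Cfi, the protease that inactivates C3b and C4b, read 10.98, 10.98 and 10.88 in the WT livers and 10.44, 10.31 and 10.30 in the JNKΔhepa livers and fell 1.51-fold (log2 change −0.60 with SE 0.0882, limma adjusted p = 0.00671), and C6, of the membrane attack complex, fell as given above with the arrays that its call rests on. The other 23 complement genes were not called (list median −0.0573), nor were 23 coagulation genes (median 0.0274) and 34 acute phase and secreted proteins (median −0.0438). For the last list the mean level was 10.15 in JNKΔhepa 3 and 10.46 to 10.63 on the other 5 arrays.

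Slc39a2 was the 1 call among 24 metallothionein and zinc transporter genes. Slc39a2, a zinc importer of the ZIP family, read 4.81, 4.82 and 5.27 in the WT livers and 6.39, 6.73 and 6.95 in the JNKΔhepa livers and rose 3.31-fold (log2 change 1.73 with SE 0.25, limma adjusted p = 0.00576). Atox1 and Slc1a5 stand outside that list and were set beside it after their values were seen. Atox1, the copper chaperone of the secretory pathway, read 8.94, 8.87 and 8.83 in the WT livers and 7.99, 7.98 and 8.15 in the JNKΔhepa livers and fell 1.79-fold (log2 change −0.84 with SE 0.0901, limma adjusted p = 0.000884). Slc1a5, the glutamine transporter ASCT2, read 4.56, 4.21 and 4.87 in the WT livers and 3.40, 3.76 and 3.75 in the JNKΔhepa livers and fell at least 1.88-fold (log2 change −0.91 with SE 0.152, limma adjusted p = 0.0129). Of 24 iron and heme genes 0 were called. Slc1a5 did not pass limma without WT 1 (adjusted p 0.0598) or JNKΔhepa 1 (0.0668), nor in the fit of the liver arrays alone (0.0765).

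The next called genes, of growth factors and of proteins at the cell surface, stand outside the lists and were set side by side after their values were seen. Bmp7, a bone morphogenetic protein that opposes TGF-beta, read 5.28, 5.33 and 5.57 in the WT livers and 4.0, 4.46 and 4.49 in the JNKΔhepa livers and fell at least 2.11-fold (log2 change −1.08 with SE 0.155, limma adjusted p = 0.00537). A second, dimmer probe set of Bmp7 had a value of 0.08, with overlapping arrays. Gpc1, a heparan sulfate proteoglycan that binds growth factors, read 4.81, 5.26 and 4.91 in the WT livers and 3.91, 4.19 and 3.65 in the JNKΔhepa livers and fell at least 2.11-fold (log2 change −1.08 with SE 0.162, limma adjusted p = 0.00701). Mcam, an adhesion molecule known as CD146, read 5.73, 5.57 and 5.46 in the WT livers and 4.68, 4.56 and 4.35 in the JNKΔhepa livers and fell 2.08-fold (log2 change −1.06 with SE 0.159, limma adjusted p = 0.00701). The receptor gene Fgfr1 (−0.66, adjusted p = 0.0201), the TGF-beta family gene Gdf10 (−0.65, 0.0211) and the platelet-derived growth factor gene Pdgfd (−0.84, not exact, 0.0142) also fell. Bmp7, Gpc1 and Mcam held without any single array. Fgfr1 did not pass limma without WT 1 (adjusted p 0.0984), WT 2 (0.0901), JNKΔhepa 1 (0.074), JNKΔhepa 2 (0.0826) or JNKΔhepa 3 (0.0657). Gdf10 did not pass limma without WT 1 (adjusted p 0.0837), WT 3 (0.0561), JNKΔhepa 1 (0.0733) or JNKΔhepa 3 (0.0958), nor in the fit of the liver arrays alone (0.0785). Pdgfd did not pass limma without WT 1 (adjusted p 0.0585), JNKΔhepa 2 (0.0698) or JNKΔhepa 3 (0.0657).

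In the extracellular matrix list 25 of 38 genes lay below 0 (median −0.0736). Tgfb3, a TGF-beta ligand, fell at a low level (−0.60, adjusted p = 0.0351). Sparc, a matrix-binding glycoprotein, went the other way: it read 9.02, 8.79 and 9.24 in the WT livers and 9.81, 9.60 and 9.67 in the JNKΔhepa livers and rose 1.6-fold (log2 change 0.67 with SE 0.115, limma adjusted p = 0.0141). Stellate cell markers, the main source of liver matrix, had 0 calls among 16, a median of −0.0955 and mean levels of 6.85, 6.75 and 6.77 in WT and 6.71, 6.68 and 6.64 in JNKΔhepa, with no overlap. Their part in these values was not tested. Anxa6, a membrane-binding annexin, was the 1 call of 41 cytoskeleton genes (−0.50, adjusted p = 0.0292). Tgfb3 did not pass limma without any 1 of the 6 arrays (adjusted p 0.0594 to 0.132). Sparc did not pass limma without WT 1 (adjusted p 0.0601), WT 2 (0.054), JNKΔhepa 1 (0.074) or JNKΔhepa 3 (0.0525), nor in the fit of the liver arrays alone (0.0687). Anxa6 did not pass limma without any 1 of the 6 arrays (adjusted p 0.0565 to 0.121), nor with the mean of its probe sets (0.0707).

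Markers of other cell types gave calls for cholangiocytes alone (25% of 12 measured, against 0.925% of all genes). Krt23, a keratin, read 2.61, 2.71 and 2.97 in the WT livers and 3.60, 3.52 and 3.44 in the JNKΔhepa livers and rose (log2 change 0.75 with SE 0.122, limma adjusted p = 0.0102), Muc1, a mucin, rose (0.64, adjusted p = 0.0195) and Anxa13, an annexin, fell (−0.64, adjusted p = 0.0188), among 12 measured markers with a median of 0.00. All 3 were dim in both groups, so the sizes are not exact. Kupffer cell and macrophage markers had 0 calls among 16 (median −0.0711), with the highest mean level in WT 3 (8.09, against 7.50 to 7.81 on the other 5 arrays). Cd163, a scavenger receptor of macrophages, read 6.76, 6.34 and 7.04 in the WT livers and 5.91, 5.61 and 6.16 in the JNKΔhepa livers (log2 change −0.82, adjusted p = 0.0799). Without WT 2 the Kupffer cell median was −0.24 and Cd163 fell past the threshold. Sinusoidal endothelial markers also had 0 calls among 16 (median 0.11). Krt23 did not pass limma without WT 1 (adjusted p 0.0585) or JNKΔhepa 1 (0.0562). Muc1 did not pass limma without WT 1 (adjusted p 0.0837), WT 2 (0.0648), JNKΔhepa 1 (0.0705) or JNKΔhepa 2 (0.08), nor in the fit of the liver arrays alone (0.0927). Anxa13 did not pass limma without WT 1 (adjusted p 0.0864), WT 2 (0.0837), JNKΔhepa 1 (0.0728) or JNKΔhepa 2 (0.0872), nor in the fit of the liver arrays alone (0.0742).

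Cell cycle genes lay slightly below 0 (24 of 37, median −0.10), with Pttg1, which encodes the anaphase inhibitor securin, as the 1 call. Pttg1 read 6.53, 6.55 and 6.71 in the WT livers and 4.33, 3.95 and 4.56 in the JNKΔhepa livers and fell at least 4.97-fold (log2 change −2.31 with SE 0.172, limma adjusted p = 3.75e-05). Of 21 p53 target and DNA damage genes, Polk, a translesion DNA polymerase, rose (0.63, adjusted p = 0.0267) and Btg2 fell, as given above. Without WT 3, Plk3, a stress-induced kinase gene, fell past the threshold and Polk did not pass. Of 29 BCL-2 family, death receptor and necroptosis genes 0 were called. Bcl2l13, a mitochondrial BCL-2-like protein outside that list, read 8.95, 9.11 and 9.12 in the WT livers and 8.23, 8.10 and 8.28 in the JNKΔhepa livers and fell 1.81-fold (log2 change −0.86 with SE 0.0826, limma adjusted p = 0.000429). Polk did not pass limma without any 1 of the 6 arrays (adjusted p 0.0522 to 0.118), nor after renewed quantile normalisation (0.0586).

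Several other genes, most of them outside the lists, were also clearly separate. Gdpd3, a glycerophosphodiesterase that makes lysophosphatidic acid, read 3.69, 3.49 and 3.31 in the WT livers and 5.87, 6.00 and 7.83 in the JNKΔhepa livers and rose at least 8.39-fold (log2 change 3.07 with SE 0.388, limma adjusted p = 0.00269), with JNKΔhepa 3 above the other JNKΔhepa livers. The other 37 phospholipase and phospholipid synthesis genes were not called. Pebp1, which encodes the Raf kinase inhibitor protein, read 7.91, 7.98 and 8.04 in the WT livers and 9.02, 8.83 and 9.0 in the JNKΔhepa livers and rose 1.96-fold (log2 change 0.97 with SE 0.0998, limma adjusted p = 0.000654), and its other probe sets had values of 0.92 and 0.53. Kdm2b, a histone demethylase, read 5.26, 5.20 and 4.97 in the WT livers and 6.01, 5.93 and 6.13 in the JNKΔhepa livers (log2 change 0.88 with SE 0.099, limma adjusted p = 0.00113). Camk2d, a calcium and calmodulin-dependent kinase, read 6.08, 6.35 and 6.29 in the WT livers and 5.46, 5.38 and 5.25 in the JNKΔhepa livers and fell 1.83-fold (log2 change −0.87 with SE 0.0993, limma adjusted p = 0.00114), and Mbnl2, a splicing regulator, read 9.65, 9.51 and 9.21 in the WT livers and 8.40, 8.35 and 8.57 in the JNKΔhepa livers and fell 2.02-fold (log2 change −1.02 with SE 0.148, limma adjusted p = 0.00583). Kars, the lysyl-tRNA synthetase, read 7.04, 6.95 and 7.06 in the WT livers and 7.56, 7.60 and 7.59 in the JNKΔhepa livers (log2 change 0.57 with SE 0.0763, limma adjusted p = 0.00383), and Rxrg, a retinoid X receptor, was the 1 call among 31 transcription factors and nuclear receptors (0.69, adjusted p = 0.0148). All of these except Rxrg held without any single array. Rxrg did not pass limma without WT 2 (adjusted p 0.0709), JNKΔhepa 1 (0.0729) or JNKΔhepa 2 (0.0686).

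The following genes were also among the 25 largest rises or the 25 largest falls. Higher were C1ql4, a secreted C1q-like protein (1.07, not exact, adjusted p = 0.0129), Neto1, known as a partner of glutamate receptors (0.99, not exact, 0.00945), and Disp2, of the Dispatched family (0.99, 0.0102). Csrp3, a muscle LIM protein (0.98, 0.0253), Ift81, of transport in cilia (0.94, 0.00411), and St6galnac3, a sialyltransferase (0.94, 0.00701), were also higher by limma. Lower were Plppr5, of the phospholipid phosphatase-related family (−1.26, adjusted p = 0.00229), Trhde, which degrades thyrotropin-releasing hormone (−1.10, not exact, 0.0477), and the long noncoding RNA Pvt1 (−1.10, 0.00303). Phlda2, an imprinted gene (−0.97, 0.0302), and Olfml1, a secreted olfactomedin-like protein (−0.91, 0.0048), were lower too. Ift81, St6galnac3, Plppr5, Pvt1 and Olfml1 held without any single array. C1ql4 did not pass limma without WT 2 (adjusted p 0.0618), JNKΔhepa 1 (0.0675) or JNKΔhepa 3 (0.0657). Neto1 did not pass limma in the fit of the liver arrays alone (adjusted p 0.0707). Disp2 did not pass limma without WT 1 (adjusted p 0.0585) or JNKΔhepa 1 (0.0539). Csrp3 did not pass limma without WT 1 (adjusted p 0.112), WT 2 (0.104), JNKΔhepa 1 (0.105) or JNKΔhepa 2 (0.101), nor in the fit of the liver arrays alone (0.0657). Trhde did not pass limma without WT 1 (adjusted p 0.181), WT 2 (0.155), JNKΔhepa 1 (0.14), JNKΔhepa 2 (0.139) or JNKΔhepa 3 (0.114), nor in the fit of the liver arrays alone (0.0903), with mouse as a random block (0.051) or after renewed quantile normalisation (0.0513). Phlda2 did not pass limma without WT 1 (adjusted p 0.139), WT 2 (0.115), JNKΔhepa 1 (0.074), JNKΔhepa 2 (0.094) or JNKΔhepa 3 (0.114), nor in the fit of the liver arrays alone (0.0716).

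Lists with 0 calls not yet described are given by the member with the smallest p. Per2 of the clock had a value of −1.25 (adjusted p = 0.102), Slc3a2 of the ATF4 response 0.41 (0.0587), Slc40a1 of iron export 0.45 (0.103) and Tfrc of iron uptake −0.65 (0.167). Pros1 of coagulation had −0.33 (0.116), Orm2 of the acute phase −0.90 (0.191), Bid of cell death −0.51 (0.165) and Ccl25 of the chemokines 0.24 (0.261). In metabolism, Gstm4 of glutathione transfer had 0.38 (0.138), Cyp2u1 of the P450 genes 0.42 (0.202), Epm2a of glycogen 0.43 (0.236) and Prodh2 of amino acid breakdown 0.19 (0.295). In organelles, Ndufa1 of complex I had 0.31 (0.215), Idh3b of the citric acid cycle 0.18 (0.346), Pex7 of peroxisomes 0.25 (0.323) and Psme1 of the proteasome −0.28 (0.239). Of other lists, Ankrd1 of the YAP targets had −0.35 (0.177), Cirbp of the cold-inducible genes 0.47 (0.226), Rhbg of pericentral hepatocytes 0.44 (0.286), Tap1 of antigen presentation 0.30 (0.26) and Iigp1 of the GTPases 0.27 (0.274). Of the cell markers, Lrat of stellate cells had −0.61 (0.0767), Stab1 of sinusoidal endothelium 0.16 (0.592), Cd79b of B cells 0.48 (0.189), Gzmb of T and NK cells −0.40 (0.225), Clec9a of dendritic cells −0.45 (0.225) and Plac8 of neutrophils and monocytes 0.44 (0.233). None of these passed limma.

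Called genes often lay close together on a chromosome. With genes ordered as in RefSeq, 46 of the 174 called genes (26.4%) had another called gene within 5 genes. Of 1526 genes within 5 genes of a called gene 46 were called (3.01%), against 0.925% of all genes. Pairs that moved the same way included Rsad2 and Cmpk2 (both higher), Camk2d and Ank2, Tifa and Fam241a, Zfp39 and Rnf187, Bcl2l13 and Mical3 and Casp4 and Pdgfd (all lower), Taok3 and Pebp1, and Kars and Terf2ip (all higher), and the trio of Plet1, Il18 and Tex12 (all higher). Others moved in opposite ways, such as Sparc (higher) beside Atox1 (lower), and Hsd3b3 (lower) beside Hao2 and Wars2 (higher). Gdf10, which fell, lies within 5 genes of Mapk8. Vps8 beside Ehhadh, Wdfy1 beside Ap1s3 and St6galnac3 beside Acadm were higher together, and Cab39l and Amer2, Lyrm7 and Anxa6, Htra4 and Fgfr1, Nipsnap2 and Cct6a and Nxpe2 and Nnmt were lower together. Rwdd3 (higher) lay beside Plppr5 (lower), and Mrpl22 (lower) beside the predicted gene Gm12250 (higher). Several of these calls rested on single arrays or settings, which are given above for Cmpk2, Tifa, Sparc, Hao2, Pdgfd, Gdf10, Mapk8, Ehhadh, Acadm, Anxa6, Fgfr1, Cct6a and Nnmt and below for Plet1. Mical3 did not pass limma without WT 1 (adjusted p 0.0585). Taok3 did not pass limma without WT 2 (adjusted p 0.062), JNKΔhepa 1 (0.0705) or JNKΔhepa 3 (0.074), nor in the fit of the liver arrays alone (0.0538). Terf2ip did not pass limma without WT 1 (adjusted p 0.077), JNKΔhepa 2 (0.0774) or JNKΔhepa 3 (0.074). Tex12 did not pass limma without WT 1 (adjusted p 0.11), WT 3 (0.0776), JNKΔhepa 1 (0.122) or JNKΔhepa 2 (0.116), nor in the fit of the liver arrays alone (0.0762). Vps8 did not pass limma without WT 1 (adjusted p 0.118), WT 3 (0.0612), JNKΔhepa 1 (0.074), JNKΔhepa 2 (0.103) or JNKΔhepa 3 (0.0657), nor in the fit of the liver arrays alone (0.077), after renewed quantile normalisation (0.0625) or with a variance trend (0.056). Ap1s3 did not pass limma without any 1 of the 6 arrays (adjusted p 0.0531 to 0.0931). Amer2 did not pass limma without WT 1 (adjusted p 0.111), WT 2 (0.0933), WT 3 (0.0745), JNKΔhepa 1 (0.131) or JNKΔhepa 3 (0.114), nor in the fit of the liver arrays alone (0.0927), with a variance trend (0.0619) or with the mean of its probe sets (0.051). Htra4 did not pass limma without any 1 of the 6 arrays (adjusted p 0.0561 to 0.131), nor in the fit of the liver arrays alone (0.0707). Nipsnap2 did not pass limma without any 1 of the 6 arrays (adjusted p 0.0832 to 0.141), nor after median centring (0.0509). Nxpe2 did not pass limma without any 1 of the 6 arrays (adjusted p 0.0577 to 0.135), nor in the fit of the liver arrays alone (0.0798) or after renewed quantile normalisation (0.0518). Rwdd3 did not pass limma without WT 1 (adjusted p 0.109), WT 2 (0.105), WT 3 (0.056), JNKΔhepa 1 (0.126) or JNKΔhepa 2 (0.119), nor in the fit of the liver arrays alone (0.0742). Mrpl22 did not pass limma without WT 1 (adjusted p 0.156), WT 2 (0.12), WT 3 (0.0904), JNKΔhepa 1 (0.171) or JNKΔhepa 3 (0.117), nor in the fit of the liver arrays alone (0.1), with mouse as a random block (0.051) or with a variance trend (0.0538).

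By chromosome, 23 of 886 tested genes on chromosome 3 were called (2.60%), the largest share, followed by chromosome 9 with 17 of 1100 (1.55%). Calls there were partly bunched, with tested genes numbered along each chromosome. On chromosome 3, Plppr5, Rwdd3, Camk2d, Ank2, Tifa, Fam241a, Cfi, Rpl34 and Adh6-ps1 lay from 698 to 798. Elsewhere on it lay Muc1 (349), Hsd3b3 (554), Hao2 (557), Wars2 (558), Slc16a1 (598), Ifi44l (850), St6galnac3 (862), Acadm (866) and calls not named here. On chromosome 9, Sorl1, Mcam, Apoa4, Nnmt, Plet1, Il18 and Tex12 lay from 351 to 445. Elsewhere on it lay Casp4 (10), Pdgfd (12), Elovl5 (701), Cyp8b1 (1065) and calls not named here. Many of the calls on both chromosomes thus lay outside these stretches. Chromosome 11, which carries Mapk9, had 18 of 1469 (1.23%), and chromosome 14, which carries Mapk8, 9 of 658 (1.37%), against 0.925% of all genes. No other call lay within 5 genes of Mapk9. Counted in tested genes from Mapk9, the nearest other call was Timd2 (higher) at −32, and Pttg1 lay at −56. Lyrm7, Anxa6, Sparc, Atox1, Mrpl22 and the predicted gene Gm12250 lay at 69, 73, 80, 81, 95 and 96. Of these, Sparc and Gm12250 were higher and the rest lower. Zfp39 lay at 119 and Rnf187 at 121. Further off lay Ulk2 (181), Xaf1 (350), Krt23 (788) and calls not named here. The labels give C57BL/6 as the background of both groups and do not give the origin of the flanking sequence, whose part in the result was not tested.

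**Figure D5:**
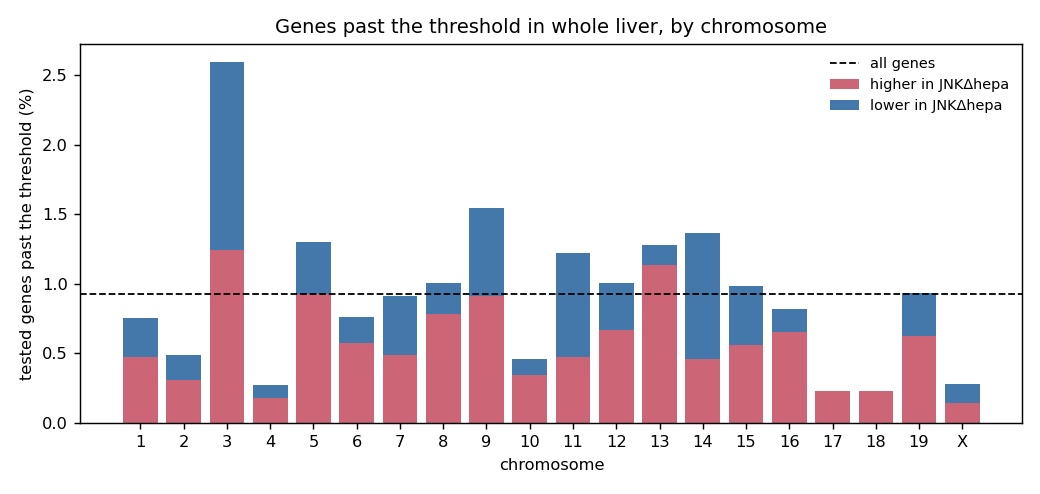
Share of tested genes called in whole liver (%) on each chromosome, split into higher (red) and lower (blue) in JNKΔhepa, with the share of all genes as a dashed line (0.925%). Chromosome 3 stands highest at 2.60%.

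The same 6 mice also gave isolated hepatocytes, the other group of samples in the series. Agreement between the tissues is therefore no independent repeat. In hepatocytes 158 genes were called (0.84%). Of the 174 liver calls, 159 had the same sign in hepatocytes and 55 were also called (31.6% of the liver calls and 34.8% of the hepatocyte calls), 54 of them in the same direction. The exception was Plet1, a surface protein gene of epithelial progenitors, which rose in liver (0.73) and fell in hepatocytes (−1.08). The difference between the tissues passed for 2 genes (0.0106%), Ifi44l and Plet1, where 1359 genes had an unadjusted limma p under 0.05. Ifi44l rose 2.45 in liver and 0.68 in hepatocytes (limma adjusted p of the difference = 0.00365), and passed without any single liver array at 0.0059 to 0.0105. The difference for Plet1 (adjusted p = 0.0147) was lost without WT 1 (0.0564), JNKΔhepa 1 (0.0743) or JNKΔhepa 2 (0.0805). For Defb1 the change was 1.88 in liver and 0.03 in hepatocytes (adjusted p of the difference = 0.129), and for Slc39a2 1.73 and 0.16 (0.36), so neither difference passed. Plet1 did not pass limma without any 1 of the 6 arrays (adjusted p 0.0523 to 0.171), nor after renewed quantile normalisation (0.0778) or after median centring (0.0619).

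Among the lists, interferon-stimulated genes had a median of 0.31 in liver and 0.36 in hepatocytes, and cholesterol synthesis genes −0.37 and −0.39. Mitochondrial beta-oxidation genes had 0.24 and 0.11, heat shock genes −0.15 and −0.0449, and male-biased genes −0.34 and 0.0201. Differences between the tissues were not tested for lists. Ifi44l was the only member of these 5 lists whose difference between the tissues passed.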

How the data were processed

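Expression was measured on microarrays from total RNA of whole liver and isolated hepatocytes of the same mice, 1 array per sample. The deposited table holds log2 values that the authors made by RMA, per the submitters' processing notes; its version and the array model were not given in the sources used here. RMA corrects background and quantile normalises, which reduces a shift shared by all genes. A small shift was left between the genotypes in liver. Upper quartiles of the WT arrays ran from 6.57 to 6.61, those of the JNKΔhepa arrays from 6.65 to 6.66. Renewed quantile normalisation of the liver arrays took the median change of all genes from 0.0155 to 0.0045. The number of mice limits the precision, and no count or depth underlies these values. Array medians differed between the tissues, so only genotype effects, not levels, were compared across them.

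Of 35556 probe sets, 21218 carried 1 gene symbol in the platform annotation, 1881 several and 12457 none. For 1386 genes with several probe sets, the one with the highest mean was used, giving 18820 genes. limma 3.58.1 (R 4.3.3) fitted tissue and genotype groups to all 12 arrays without a block, with lmFit, eBayes and Benjamini-Hochberg adjustment over all genes. The fit was tested on simulated data. Tables and plots used Python 3.11.15 with pandas 2.3.3 and matplotlib 3.10.9.

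The text names the targeted genes, the 25 largest rises and the 25 largest falls among calls with separate arrays, every called list member, the member with the smallest p of a list without calls, called neighbours within 5 genes, and further list members by value. Predicted genes, clones, small RNAs, receptor segments and olfactory receptors were counted but not named, except for Gm12250. Timd2 was named as the call nearest to Mapk9. The called genes of an added ubiquinone list, Coq5, Coq10a and Pdss2, were named after their values were seen. The 58 pathway and 10 marker lists hold 1827 entries, of which 1619 were measured. All lists and rules were chosen with earlier results of these data known; the ubiquinone list, the wording of sizes at low signal and the motif TGACNTCA came after values had been seen. Symbols were matched to RefSeq (GRCm38.p6) for gene order and promoters.

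Replicate numbers belong to different mice in the 2 genotypes. Deviations from the group means of same-numbered livers correlated at 0.0268, −0.1195 and −0.0581, so the numbers do not pair them. Alternatives were a fit of the liver arrays alone, replicate and mouse blocks, renormalisation, median centring, a filter on dim probe sets, a variance trend, array weights, the mean of probe sets and each array left out.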

Additional observations from a re-analysis of the deposited data

Results flagged for a closer look

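The genotype effect differed between whole liver and isolated hepatocytes for 2 genes, by limma's test of the difference itself. For Ifi44l the adjusted p of the difference was 0.00365: hepatocytes read 2.57, 2.32 and 2.34 in WT mice and 2.99, 3.30 and 2.99 in JNKΔhepa mice, a log2 change of 0.68 against 2.45 in liver. For Plet1 it was 0.0147: hepatocytes read 3.42, 3.10 and 2.83 in WT mice and 2.29, 1.93 and 1.88 in JNKΔhepa mice, a log2 change of −1.08, where liver read 5.90, 6.10 and 6.03 in WT mice and 6.90, 6.81 and 6.53 in JNKΔhepa. Ifi44l thus rose in both tissues, more in liver, and Plet1 moved in opposite directions. The levels of both genes in hepatocytes lie near or below the array medians. No group of this design holds the 4 samples that a check for single outlying samples needs.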

How the results depend on the processing

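All 174 calls kept their direction wherever they were tested. Array weights raised the calls to 408 (260 higher, 148 lower); the cause was not tested. Over fits without 1 liver array, calls ranged from 80 to 208, higher calls from 40 to 119, lower calls from 35 to 89 and genes whose effect differed between tissues from 1 to 7. Of 136 genes that the naming rule and the added list took, 102 were called, and 46 of these passed without any single array. The liver arrays alone gave 127 calls, mouse as a random block 169, renewed quantile normalisation 142 (51.4% higher, against 60.3%), median centring 158, the filter on dim probe sets 206, a variance trend 214 and the mean of probe sets 184. With the replicate block there were 131 calls (79 higher, 52 lower) and 2 differences between tissues. Of these 131 calls 120 were among the 174, and 23 called genes named by the rule did not pass there. What a loss there says of a single effect was not tested. Of the called genes, 55 were dim in a group and 23 in both, where low signal limits the size.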
